A study of Rattus norvegicus with 6 samples.

Results

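Interleukins are secreted signalling proteins, and each is read by a receptor built from 1 or more membrane chains. The genes described here are the interleukins and their receptor chains measured in 2 cell fractions of the rat epididymis, the duct in which sperm mature. Members were all genes with a symbol that begins with "Il" and a number, each represented by the probe set with 1 gene symbol and the highest mean over the arrays. This gave 75 of 18166 genes tested, of which 35 were ligands, 34 receptor chains and 6 inhibitors (receptor antagonists, decoy receptors and soluble binding proteins). Epididymal tissue of Sprague-Dawley rats, 48 days old, was parted by a magnetic method into a basal and a non-basal fraction, and each was measured on 3 Affymetrix RaGene 2.0 ST arrays, numbered 1 to 3 here. No treatment or genetic change is named for either fraction. The labels speak of 3 rats, but they do not say which animal an array came from, whether animals were pooled, or which surface molecule was used for the separation. The symbols of 75 members were found in RefSeq unchanged. The genes Il2rb, Il12rb1, Il15ra, Il17d, Il27 and Il4i1 were not analysed here.

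The families differ in how they signal. Receptors of the interleukin-1 family pair a ligand-binding chain with an accessory chain, the shared Il1rap for most and Il18rap for interleukin-18. They act through the adaptor Myd88 and NF-kappaB, and interleukin-17 receptors reach NF-kappaB through another adaptor, Traf3ip2. Receptors of the interleukin-2, interleukin-6, interleukin-10 and interleukin-12 groups act through Janus kinases and STAT factors and share chains such as Il2rg, Il6st and Il10rb. In an epithelium, interleukins made by epithelial cells, stroma and leukocytes carry signals between these cell types, and basal cells are the layer that rests on the basement membrane.

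Values are log2 RMA expression levels, in which a difference of 1 is a 2-fold difference. The levels of different genes come from different probe sets and were not compared with each other. Levels ran from 1.46 to 14.33 over the 6 arrays, with array medians of 6.63 to 6.70, and correlations between arrays were 0.982 to 0.991 within and 0.956 to 0.974 between fractions. All 8 basal cell markers were higher in the basal fraction, and all 6 fibroblast, all 4 smooth muscle and all 5 endothelial markers measured were lower, as were 2 of 3 pan-leukocyte markers. Of 12 T and NK cell markers 7 were lower, whereas 0 of 7 principal cell, 0 of 9 macrophage, 0 of 5 dendritic cell and 0 of 7 mast cell markers passed the limma test in either direction; 2, 0, 2 and 5 of these had an unadjusted p under 0.05. In bulk fractions, fewer cells of a type and less RNA per cell cannot be told apart.

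Compared between the fractions, 5 members were higher in the basal fraction and 12 were lower, at a limma adjusted p under 0.05 (Benjamini-Hochberg over all 18166 genes). The 5 were the ligand gene Il24 and the receptor genes Il1rl2, Il23r, Il20ra and Il17re. The 12 were the ligand genes Il6, Il33, Il34 and Il11 and the receptor genes Il2rg, Il12rb2, Il1rl1, Il2ra, Il31ra, Il4r, Il21r and Il17rd. Together these were 22.7% of the members, whereas 14.9% of all genes passed, 7.71% of all genes being higher and 7.14% lower. The fractions did not overlap in 32 of the 75 members (42.7%), against 32.9% of all genes. The median log2 difference, basal minus non-basal, was -0.09 over the members and 0.0034 over all genes. The counts depended on single arrays, with 3 members higher and 5 lower without basal array 1 and again without basal array 2, 4 and 6 without non-basal array 2, and 2 and 6 without non-basal array 3. Without basal array 3, 9 were higher and 11 lower. The counts of all genes moved as well, from 1401 higher and 1297 lower with all arrays. They were 560 and 631 without basal array 1, and 509 and 578 without basal array 2. Without non-basal array 2 they were 624 and 637, and without non-basal array 3 they were 527 and 542. Without basal array 3 they were 2068 and 1475.

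**Figure D1:**
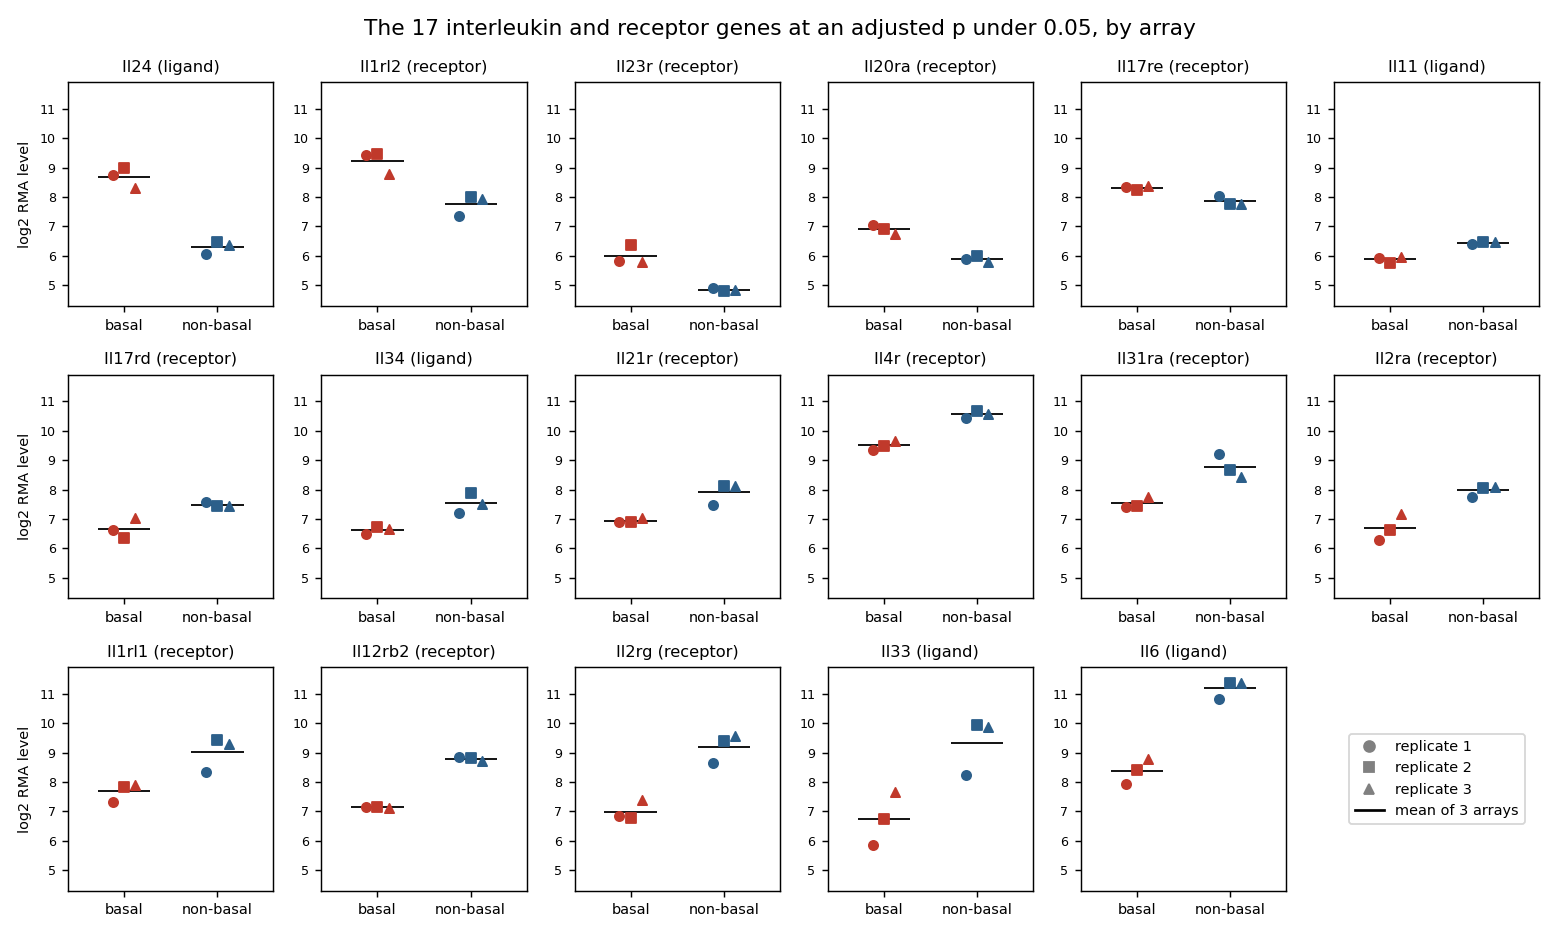
Log2 RMA level (vertical axis) of the 17 genes that passed the test, in the 3 basal (red) and 3 non-basal (blue) arrays, with the replicate number as the symbol and the mean as a bar. In all 17 the fractions do not overlap, which selection by the test favours, and they do not overlap in 32.9% of all genes. Il24 has the largest positive difference, 2.37, and Il6 the largest negative one, -2.82.

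Receptor chains passed the test in a larger share than ligands. Of 34 receptor chains 4 were higher, 8 were lower and 22 did not pass, so that 35.3% were called. Of 35 ligands 1 was higher and 4 were lower, or 14.3%, and the other 30 missed the threshold. Beside the 14.9% called among all genes, the share of ligands was at the background and that of receptors above it. None of the 6 inhibitors passed, 1 of them having an unadjusted p under 0.05. Whether ligands and receptors differ in these shares was not tested. The medians were -0.06 for ligands and -0.12 for receptors, and the ligand median changed sign to 0.01 without non-basal array 3. The ligand count fell to 2 lower without basal array 1, basal array 2 or non-basal array 3, and rose to 3 higher without basal array 3. For receptors the counts were 2 higher and 3 lower without basal array 1 or 2, 3 and 3 without non-basal array 2, and 1 and 4 without non-basal array 3. The counts of all genes higher and lower fell in these fits too. By family, 4 of 7 receptor chains of the common gamma family (Il2rg, its partners and Il13ra1) were lower and 0 higher, and 0 of their 7 ligands passed (2 at an unadjusted p under 0.05 in limma). In the interleukin-6 and interleukin-12 families 1 of 13 members was higher and 4 were lower, in the interleukin-1 family 1 of 20 was higher and 2 were lower, in the interleukin-10 family 2 of 11 were higher and 0 lower, and in the interleukin-17 family 1 of 10 was higher and 1 lower. Il10ra was the interleukin-10 family member with a negative difference at an unadjusted p under 0.05. Of the 9 members whose mean was under 5 in both fractions, 6 were ligands and 3 were receptor chains.

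**Figure D2:**
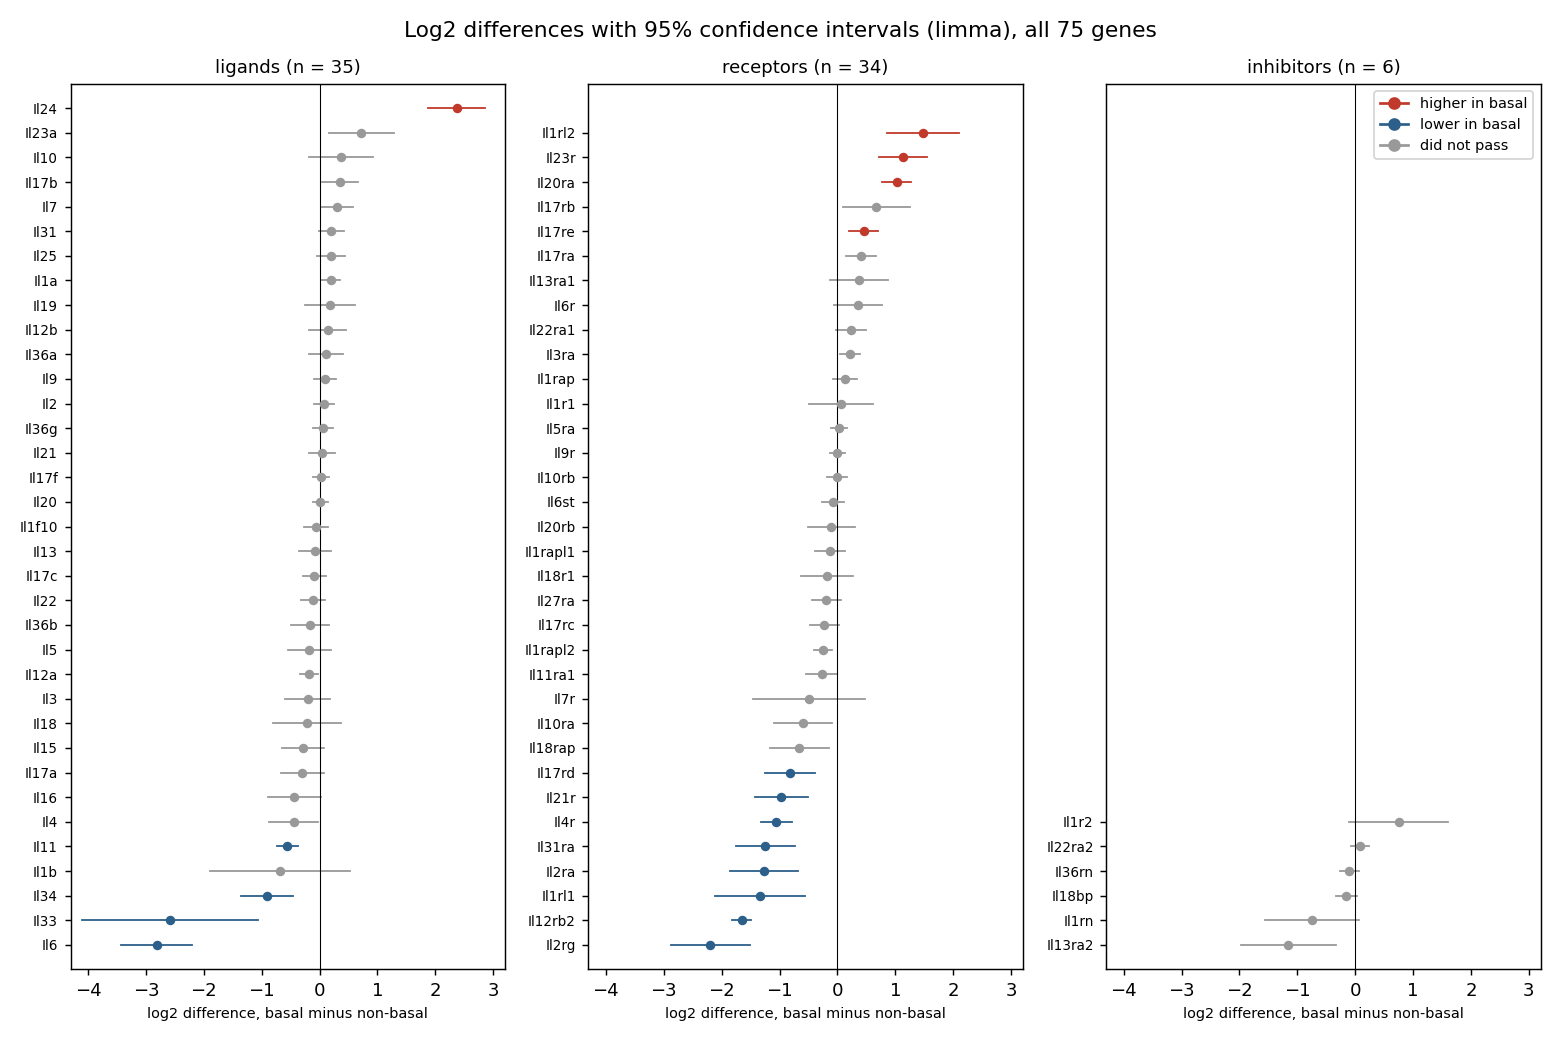
Log2 difference, basal minus non-basal (horizontal axis), of all 75 genes with the 95% confidence interval from limma, split into ligands, receptor chains and inhibitors. Red and blue mark genes that passed the test as higher and lower in the basal fraction, 5 and 12 in all, and grey marks the 58 that did not.

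Among the ligands, Il24 alone was higher in the basal fraction. It encodes a cytokine of the interleukin-10 family that signals through receptors on epithelial cells. Its levels were 8.76, 8.98 and 8.29 in basal arrays 1 to 3, against 6.06, 6.48 and 6.38 in the corresponding non-basal arrays. The lowest basal array thus lay well above the highest non-basal array. The difference was 2.37 ± 0.201 (SE), or 5.18-fold, with a limma adjusted p of 0.00242, and it passed in each of the 6 fits with 1 array left out.

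Il6, which encodes the pleiotropic cytokine interleukin-6, had the most negative difference of all members. Its levels were 7.95, 8.39 and 8.80 in the basal arrays and 10.84, 11.38 and 11.38 in the non-basal arrays. The arrays within a fraction differed by less than 1, and the fractions were about 2 apart at their nearest. The difference was -2.82 ± 0.253, 7.05-fold lower in the basal fraction (limma adjusted p = 0.00266), and it passed in all 6 fits with 1 array left out.

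Il33, an alarmin of the interleukin-1 family stored in nuclei of barrier and stromal cells, stood at 5.87, 6.75 and 7.65 in the basal and 8.22, 9.93 and 9.87 in the non-basal arrays. Its spread within a fraction was wide, and basal array 3 and non-basal array 1 approached each other without crossing. The difference was -2.58 ± 0.62 (limma adjusted p = 0.0427). The call was lost without basal array 1 or 2 (adjusted p = 0.134 and 0.15) and without non-basal array 2 or 3 (0.142 and 0.16). Fibroblast markers moved with Il6 and Il33 over the arrays: their mean level lay at 6.97 to 9.23 in the basal arrays, highest in array 3, and at 11.58 to 12.50 in the non-basal arrays, lowest in array 1. All 6 fibroblast markers were lower. Smooth muscle markers, all 4 lower, had a mean level of 8.66 to 9.67 in the basal arrays, again highest in array 3, and of 11.22 to 11.29 in the non-basal arrays. In both lists 0 markers had a mean under 5 in both fractions. T and NK cell markers had the same order of arrays as fibroblast markers. Their mean levels were 5.58, 5.80 and 6.08 in the basal and 7.04, 7.78 and 7.70 in the non-basal arrays. Endothelial markers were also highest in array 3 among the basal arrays, at 7.55, but highest in array 1 among the non-basal arrays. The part of any of these cells in the results was not tested.

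The remaining ligands that were lower had smaller differences. Il34, a ligand of the macrophage growth factor receptor Csf1r, stood at 6.50, 6.73 and 6.65 in the basal and 7.19, 7.90 and 7.52 in the non-basal arrays, a difference of -0.91 ± 0.183 (limma adjusted p = 0.0246). That call was lost without basal arrays 1, 2 or 3 (adjusted p = 0.102, 0.0846 and 0.0531) and without non-basal array 3 (0.101). Il11, a cytokine that signals through Il6st, stood at 5.94, 5.76 and 5.94 against 6.41, 6.46 and 6.46. Its difference of -0.56 ± 0.0744 was small but exceeded the spread within the fractions (adjusted p = 0.00654) and passed in all 6 fits with 1 array left out.

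To show the regulatory sequence beside the largest differences, the 250 bases before the RefSeq transcription start (GRCr8, credited to RefSeq, printed 5′ to 3′ in the direction of the gene) are given for the called members with the 2 most positive and the 2 most negative differences. Capitals mark matches, on either strand, to a kappaB motif (GGG, any 2 bases, then TTTCC), the AP-1 motif TGANTCA or the STAT motif TTCNNNGAA. The regions are chr13:44910761-44911010 (minus strand) for Il24, chr9:50087302-50087551 (plus strand) for Il1rl2, chr4:5894576-5894825 (minus strand) for Il6 and chr1:237115323-237115572 (plus strand) for Il33.
Il24: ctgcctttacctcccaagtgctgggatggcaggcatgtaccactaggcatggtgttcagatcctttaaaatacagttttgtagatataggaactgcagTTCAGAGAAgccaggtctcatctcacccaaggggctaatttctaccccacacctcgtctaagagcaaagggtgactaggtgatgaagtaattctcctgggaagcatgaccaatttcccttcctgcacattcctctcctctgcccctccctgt
Il1rl2: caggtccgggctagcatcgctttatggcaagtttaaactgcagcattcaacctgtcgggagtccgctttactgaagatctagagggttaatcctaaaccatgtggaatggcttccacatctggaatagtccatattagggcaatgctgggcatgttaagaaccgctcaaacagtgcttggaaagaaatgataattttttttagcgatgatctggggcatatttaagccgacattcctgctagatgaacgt
Il6: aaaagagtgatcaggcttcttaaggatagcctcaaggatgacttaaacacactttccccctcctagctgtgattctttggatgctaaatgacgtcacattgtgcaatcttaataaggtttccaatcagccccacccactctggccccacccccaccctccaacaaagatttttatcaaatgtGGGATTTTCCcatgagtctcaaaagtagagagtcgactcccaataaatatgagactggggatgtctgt
Il33: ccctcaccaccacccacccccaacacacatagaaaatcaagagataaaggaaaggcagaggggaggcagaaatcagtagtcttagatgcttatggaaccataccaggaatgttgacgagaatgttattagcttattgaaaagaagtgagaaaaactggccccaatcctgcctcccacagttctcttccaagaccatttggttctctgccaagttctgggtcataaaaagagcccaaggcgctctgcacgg
The Il6 window held 1 kappaB match, GGGATTTTCC, from 68 to 59 bases before the start, and the Il24 window held 1 STAT match, TTCAGAGAA, from 152 to 144 bases before it. The windows of Il1rl2 and Il33 held 0 matches to these letters. Promoters were found for 59 of the 75 members, with 1 window kept per gene. The set of all windows was not reduced to 1 per gene, so the shares below are on unlike units. The kappaB motif was in 4 of these 59 windows (6.78%), those of Il6, Il9, Il1rn and Il23r, and in 1.3% of all 33469 windows of the same length. The AP-1 motif was in 5 (8.47%, against 6.34%) and the STAT motif in 6 (10.2%, against 7.67%). A match describes the letters only, and binding was not measured.

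Of the receptor genes higher in the basal fraction, Il1rl2 had the largest difference. It encodes the receptor of the interleukin-36 cytokines, which act on epithelia. Its levels were 9.44, 9.45 and 8.77 in the basal and 7.34, 7.99 and 7.92 in the non-basal arrays. Basal array 3 was lowest among the basal arrays but remained above all non-basal ones. The difference was 1.47 ± 0.254, or 2.77-fold (limma adjusted p = 0.015), and the call was lost without basal array 1 or 2 (adjusted p = 0.0718 and 0.0764) or non-basal array 3 (0.0637).

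Il23r encodes the chain that gives the interleukin-23 receptor its specificity. It stood at 5.82, 6.37 and 5.78 in the basal and 4.92, 4.80 and 4.84 in the non-basal arrays. The non-basal arrays were closely matched and all lay below the basal ones, with a mean under 5. The difference was 1.14 ± 0.168 (limma adjusted p = 0.00909, and 0.0557 without non-basal array 3).

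Il20ra encodes the alpha chain of the receptor for interleukins 19, 20 and 24. It stood at 7.06, 6.93 and 6.75 against 5.89, 5.98 and 5.78, so that the fractions were apart in every array. The difference was 1.03 ± 0.101, 2.04-fold (limma adjusted p = 0.00313), and passed in all 6 fits with 1 array left out.

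Il17re, the chain that binds interleukin-17C, had the smallest difference of the called receptors. Its levels were 8.36, 8.23 and 8.36 in the basal and 8.05, 7.77 and 7.77 in the non-basal arrays, a difference of 0.45 ± 0.1 (limma adjusted p = 0.034). The call held only without non-basal array 1. It was lost without basal arrays 1, 2 or 3 (adjusted p = 0.123, 0.0826 and 0.0696) and without non-basal array 2 or 3 (0.114 and 0.126). Il17ra, the chain that Il17re pairs with, had a difference of 0.41 ± 0.104 and just missed the threshold (adjusted p = 0.0516); without basal array 3 its adjusted p was 0.0216.

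The receptor genes that were lower included several chains of lymphocyte growth factor receptors. Il2rg, the common gamma chain shared by the receptors for interleukins 2, 4, 7, 9, 15 and 21, stood at 6.84, 6.78 and 7.37 in the basal and 8.65, 9.38 and 9.55 in the non-basal arrays. Every non-basal array exceeded every basal array by more than 1. The difference was -2.20 ± 0.278, 4.58-fold lower (limma adjusted p = 0.00569), and passed in all 6 fits with 1 array left out. Il2ra, the high-affinity chain of the interleukin-2 receptor, stood at 6.27, 6.64 and 7.18 against 7.76, 8.05 and 8.10. Basal array 3 came nearest to the non-basal arrays. The difference was -1.27 ± 0.239 (adjusted p = 0.02), lost without basal array 1 or 2 (adjusted p = 0.0553 and 0.0928) and without non-basal array 2 or 3 (0.0824 and 0.0974).

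Il21r, the interleukin-21 receptor, stood at 6.88, 6.90 and 7.04 in the basal and 7.48, 8.14 and 8.12 in the non-basal arrays, with the basal arrays closely matched and non-basal array 1 lowest of its fraction. The difference was -0.97 ± 0.189 (limma adjusted p = 0.0222), lost without basal array 1 or 2 (adjusted p = 0.0944 and 0.0987) and without non-basal array 2 or 3 (0.0817 and 0.0972). Il4r, the chain shared by interleukin-4 and interleukin-13 receptors and found on many cell types, stood at 9.34, 9.49 and 9.67 against 10.43, 10.66 and 10.56. The arrays of each fraction lay close together and far from those of the other. The difference was -1.05 ± 0.109, 2.08-fold lower (adjusted p = 0.00352), and passed in all 6 fits with 1 array left out.

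Il12rb2, the signalling chain of the interleukin-12 receptor known from T and NK cells, had the smallest p of all members. Its levels were 7.15, 7.15 and 7.12 in the basal and 8.84, 8.83 and 8.71 in the non-basal arrays. The spread within a fraction was far smaller than the gap between them. The difference was -1.66 ± 0.0647, 3.15-fold lower (limma adjusted p = 0.000908), and passed in all 6 fits with 1 array left out. The 12 T and NK cell markers, 7 of them lower, had a mean level of 5.58 to 6.08 in the basal and 7.04 to 7.78 in the non-basal arrays. The 7 were Cd7, Prf1, Nkg7, Gzma, Cd2, Gzmb and Zap70, at differences of -3.91 to -0.75, and the other 5, Cd3d, Cd3e, Cd3g, Klrb1 and Ncr1, lay at -0.60 to -0.20 and did not pass. Cd2 and Gzmb lost their calls without basal array 1 or 2 (adjusted p = 0.147 and 0.15 for Cd2, 0.0993 and 0.106 for Gzmb) and without non-basal array 2 or 3 (0.141 and 0.166, and 0.072 and 0.108). The pan-leukocyte markers Ptprc and Laptm5 were lower too and Tyrobp did not pass (adjusted p = 0.0826), and the mean level of these 3 was 7.63 to 8.11 in the basal and 8.64 to 9.91 in the non-basal arrays. Among the non-basal arrays, T and NK cell markers were lowest in array 1, as were Il2rg, Il2ra and Il21r, whereas Il12rb2 was highest there. Endothelial markers, all 5 lower, had a mean level of 7.01 to 7.55 in the basal arrays. In the non-basal arrays they stood at 9.15, 9.05 and 9.12, highest in array 1 and lowest in array 2. Il12rb2 was lowest in array 3 there, and its arrays 1 and 2 were close, at 8.84 and 8.83. Among the basal arrays, endothelial markers were highest in array 3, at 7.55, where Il12rb2 was lowest, at 7.12. The part of any of these cells in the lower values of Il2rg, Il2ra, Il21r and Il12rb2 was not tested.

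**Figure D3:**
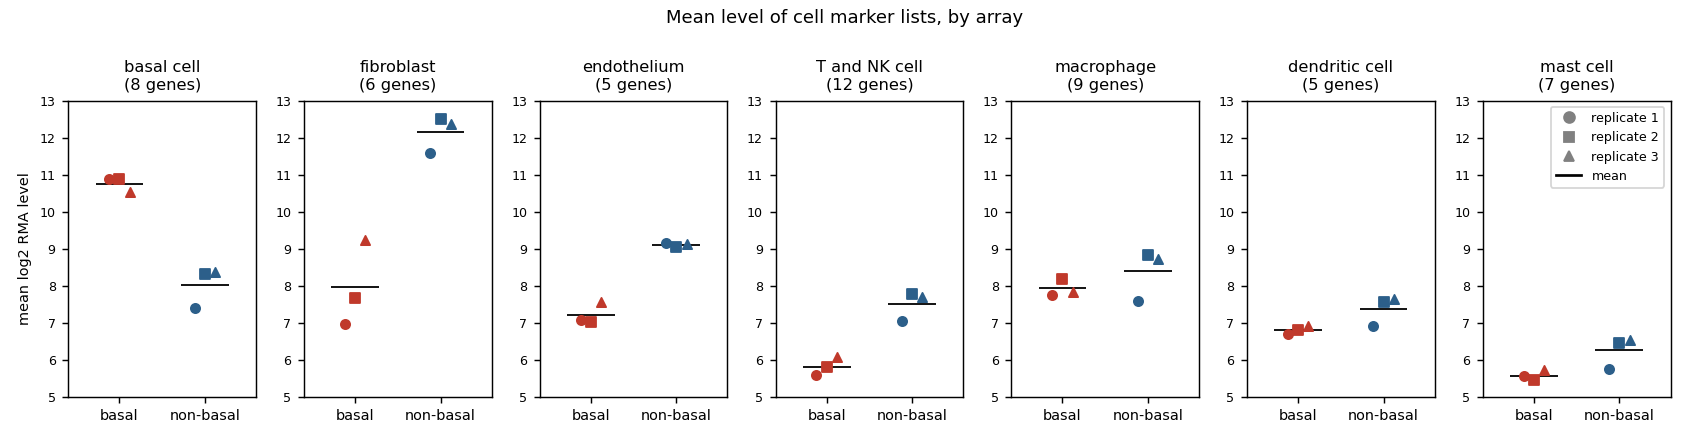
Mean log2 RMA level (vertical axis) of 7 cell marker lists in each array, basal in red and non-basal in blue, with the replicate number as the symbol and the mean as a bar. T and NK cell, fibroblast and endothelial markers lie lower in all 3 basal arrays, and non-basal array 1 has the lowest macrophage level of the 6 arrays, 7.59.

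Il1rl1, the receptor of interleukin-33 known as ST2, stood at 7.32, 7.82 and 7.90 in the basal and 8.35, 9.44 and 9.28 in the non-basal arrays. Non-basal array 1 lay nearest to the basal arrays. The difference was -1.34 ± 0.319 (limma adjusted p = 0.0417). The call held only without non-basal array 1 and was lost without basal arrays 1, 2 or 3 (adjusted p = 0.144, 0.127 and 0.0644) and without non-basal array 2 or 3 (0.129 and 0.157). Mast cells are known for ST2. Of 7 mast cell markers 0 passed. Of these, 5 (Cpa3, Kit, Tpsab1, Tpsb2 and Hdc) had negative differences at an unadjusted limma p under 0.05, the largest being -2.14 for Cpa3. The mean level of the 7 was 5.44 to 5.72 in the basal and 5.76 to 6.53 in the non-basal arrays. The markers Ms4a2 and Mcpt1 had a mean under 5 in both fractions. The part of mast cells in the Il1rl1 result was not tested.

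Il31ra encodes a chain of the interleukin-31 receptor and stood at 7.41, 7.43 and 7.73 against 9.21, 8.68 and 8.44. Here non-basal array 1 was the highest array. The difference was -1.25 ± 0.209 (limma adjusted p = 0.0136), lost without basal array 1 or 2 (adjusted p = 0.0683 and 0.0734) or non-basal array 2 (0.0553). Il17rd, a receptor-like protein also known to restrain fibroblast growth factor signalling, stood at 6.63, 6.34 and 7.04 against 7.57, 7.44 and 7.44. The difference was -0.81 ± 0.177 (adjusted p = 0.0318), a call that held only without basal array 3 and was lost without basal array 1 or 2 (adjusted p = 0.119 and 0.0776) and without non-basal arrays 1, 2 or 3 (0.0787, 0.0994 and 0.114).

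Among the inhibitors, Il13ra2, a decoy receptor that binds interleukin-13, stood at 8.76, 8.83 and 10.002 in the basal and 10.29, 10.30 and 10.47 in the non-basal arrays. Basal array 3 stood close to the non-basal arrays while the other basal arrays lay more than 1 below. The difference of -1.16 ± 0.337 did not pass (limma adjusted p = 0.0753), but without basal array 3 it was -1.56 with an adjusted p of 0.00167. The decoy receptor gene Il1r2 had a difference of 0.75 ± 0.351 (adjusted p = 0.217) and the interleukin-1 receptor antagonist gene Il1rn one of -0.75 ± 0.334 (adjusted p = 0.199). Il18bp, Il36rn and Il22ra2 lay between -0.16 and 0.08.

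Ligands were then set beside the receptor chains that read them. For Il24, higher in the basal fraction, the receptor chain Il20ra was higher as well, while Il20rb, which both forms of its receptor need, differed by -0.10 (95% interval -0.51 to 0.30; limma adjusted p = 0.715) and Il22ra1 by 0.23 (-0.03 to 0.49; adjusted p = 0.207). The related ligands Il19 and Il20 differed by 0.18 (adjusted p = 0.55) and 0.01 (adjusted p = 0.891). Il20 held 1 identical value in 5 of the 6 arrays. For Il1rl2, its ligands Il36a, Il36b and Il36g differed by 0.11, -0.16 and 0.06, with adjusted p of 0.568, 0.469 and 0.596. Il36b and Il36g had means under 5 in both fractions. The shared chain Il1rap differed by 0.13 (adjusted p = 0.349).

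For Il23r, the ligand subunit Il23a stood at 8.99, 9.24 and 8.44 in the basal and 8.44, 7.99 and 8.06 in the non-basal arrays, where basal array 3 met non-basal array 1. The difference was 0.72 ± 0.229 (limma adjusted p = 0.0942, and 0.0233 without basal array 3). The partner subunit Il12b differed by 0.14 (adjusted p = 0.529) and Il12a by -0.18 (adjusted p = 0.119). Il12b held 1 identical value in 4 of the 6 arrays. For Il17re, the ligand Il17c differed by -0.09 (adjusted p = 0.514).

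For Il6, neither receptor chain passed the test. Il6st, the signalling chain gp130, stood at 11.74, 11.71 and 11.52 in the basal and 11.78, 11.71 and 11.71 in the non-basal arrays, a difference of -0.07 (95% interval -0.27 to 0.12; limma adjusted p = 0.577). Il6r, the ligand-binding chain, stood at 9.45, 9.54 and 8.92 against 8.87, 8.99 and 8.98, with basal array 3 among the non-basal values. Its difference was 0.36 (interval -0.06 to 0.77; adjusted p = 0.224), and 0.55 with an adjusted p of 0.0104 without basal array 3. Il11ra1, the receptor of interleukin-11, differed by -0.27 (adjusted p = 0.155, and 0.0385 without non-basal array 1).

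Il33 and its receptor Il1rl1 were both lower. For Il34, 1 of 2 receptors passed: Csf1r, the macrophage receptor, differed by -0.71 ± 0.504 (limma adjusted p = 0.395), whereas Ptprz1, a membrane phosphatase that also binds interleukin-34, was higher by 2.66 ± 0.288 (adjusted p = 0.00384). Ptprz1 stood at 9.03, 9.32 and 8.31 in the basal and 5.94, 6.55 and 6.21 in the non-basal arrays. The differences of Ptprz1 and Il34 lay in opposite directions. For Il31ra the partner chain Osmr was higher in the basal fraction, by 0.65 ± 0.143 (adjusted p = 0.0327). The Osmr call held only without basal array 3 and was lost in the other 5 fits with 1 array left out, at adjusted p of 0.0692 to 0.126. The ligand Il31 had means under 5 in both fractions and differed by 0.20 (adjusted p = 0.192).

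The ligands of the lymphocyte receptor chains did not pass. Il2, Il21 and Il4 had means under 5 in both fractions and differed by 0.08, 0.04 and -0.45 (limma adjusted p = 0.511, 0.798 and 0.15). Il7, a lymphocyte survival factor made by stroma and epithelia, stood at 8.63, 8.82 and 8.57 in the basal and 8.54, 8.24 and 8.32 in the non-basal arrays. Its difference was 0.31 ± 0.11 (adjusted p = 0.125), and the fractions did not overlap. Il15, Il9 and Il13 differed by -0.28, 0.09 and -0.08 (adjusted p = 0.261, 0.462 and 0.695). Il13ra1, the chain that pairs with Il4r, differed by 0.37 ± 0.204 (adjusted p = 0.285, and 0.0115 without basal array 3).

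The interleukin-1 pair itself was not called. Il1a, which epithelia hold in a cell-bound form, stood at 10.71, 10.78 and 10.83 in the basal and 10.61, 10.61 and 10.51 in the non-basal arrays. The basal arrays were all higher, by a difference of 0.20 ± 0.0665 that did not pass (limma adjusted p = 0.112). Il1b, made mainly by myeloid cells, stood at 8.79, 9.56 and 8.46 against 8.61, 10.21 and 10.03, with non-basal array 1 among the basal arrays. Its difference was -0.68 ± 0.496 (adjusted p = 0.407). Macrophage markers had the same order in the non-basal arrays, at a mean level of 7.59, 8.83 and 8.73 in arrays 1 to 3, against 7.76 to 8.18 in the basal arrays. By limma 0 of the 9 passed, and 0 had an unadjusted p under 0.05, and their part in the spread of Il1b was not tested. The receptor Il1r1 differed by 0.06 (95% interval -0.49 to 0.61) and the shared chain Il10rb by -0.01 (-0.18 to 0.16).

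The rest of the ligands lay between -0.44 for Il16, a T cell chemoattractant, and 0.37 for Il10, the immunosuppressive cytokine, and did not pass. Il17a, Il18, Il3, Il5, Il22, Il1f10 and Il17f lay between these, and so did Il25 at 0.20 and Il17b at 0.35. Of the rest of the receptor chains Il1rapl2, a relative of Il1rap known from the nervous system, came nearest to the threshold at -0.26 ± 0.0646 (limma adjusted p = 0.0503), with means of 4.18 and 4.44 that are dim in both fractions. Il17rc differed by -0.22, Il27ra by -0.19, Il1rapl1 by -0.13 and Il9r by -0.002, with adjusted p of 0.215 to 0.986. Il9r held 1 identical value in 5 of the 6 arrays.

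Several members lie next to each other in the genome, which the rule did not use. In the order of protein-coding genes in RefSeq (GRCr8), 35 members fell into 12 groups with at most 3 other coding genes between neighbours, and these held 23 neighbouring pairs. In 2 pairs both genes were called in opposite directions, in 1 pair both were called in the same direction, in 6 pairs 1 gene was called and in 14 neither. Of all members 22.7% were called, and of all genes 14.9%. Neighbouring pairs were not counted over all genes, so these pair counts have no background to be read against. The first opposite pair is Il12rb2 and Il23r on chromosome 4, with 0 coding genes between them. Across it, the difference turned from -1.66 for Il12rb2 to 1.14 for Il23r.

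The second opposite pair is Il1rl2 and Il1rl1, side by side in the interleukin-1 receptor group on chromosome 9. There the differences ran from 0.75 for Il1r2, 0.06 for Il1r1 and 1.47 for Il1rl2 to -1.34 for Il1rl1, -0.19 for Il18r1 and -0.66 for Il18rap, in that order along the chromosome. Il1r2, Il1r1, Il18r1 and Il18rap did not pass. Il4r and Il21r on chromosome 1 were both lower. In the interleukin-10 group on chromosome 13, Il24 was called and its neighbours Il20, Il19 and Il10 were not, at 0.01, 0.18 and 0.37.

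**Figure D4:**
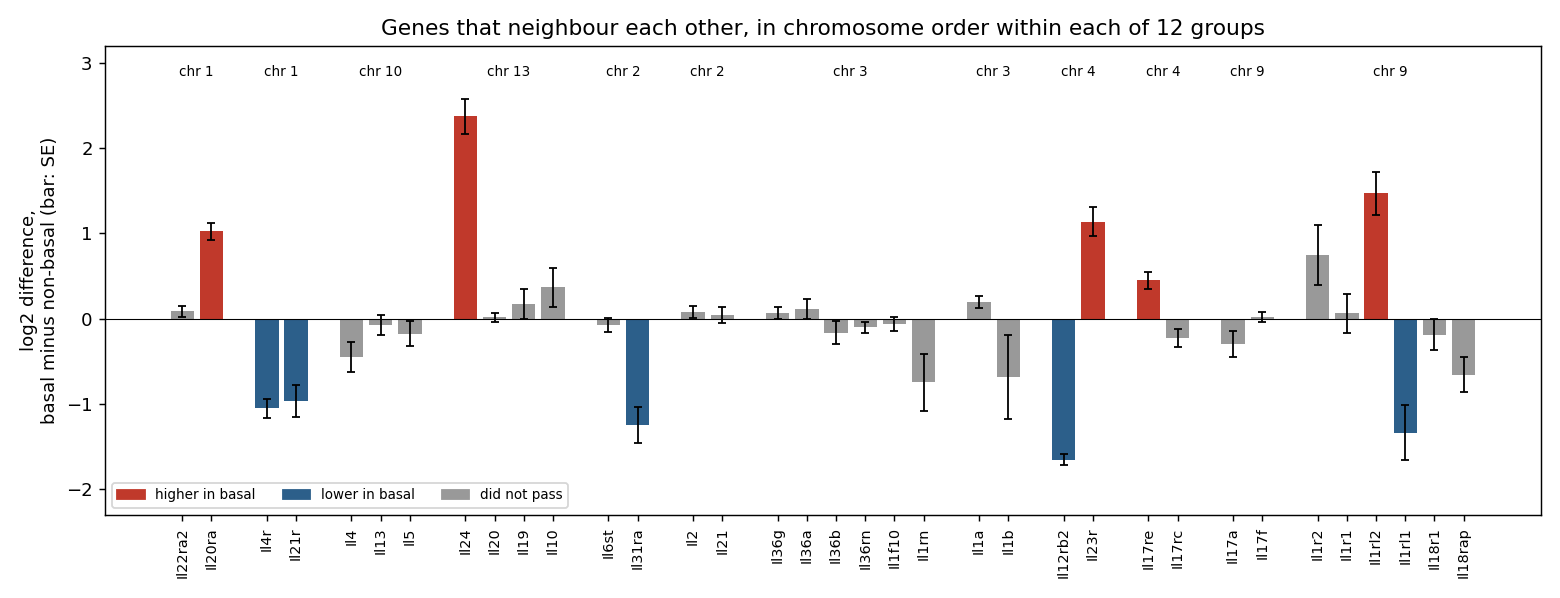
Log2 difference, basal minus non-basal (vertical axis, bars with the standard error), of the 35 members with a neighbour among the members, in chromosome order within 12 groups. Red and blue mark genes called higher and lower; Il12rb2 and Il23r on chromosome 4 and Il1rl2 and Il1rl1 on chromosome 9 point in opposite directions.

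The genes that carry or release these signals were followed in 4 lists, of whose 102 genes 90 were measured, with 14 higher and 9 lower (25.6% called, against 14.9% of all genes). Without basal array 1 these were 8 and 5, without basal array 2 they were 8 and 3, without non-basal array 2 they were 10 and 3, and without non-basal array 3 they were 7 and 3. The counts of all genes higher and lower fell in the same fits. In the list of interleukin-1 and interleukin-17 receptor signalling, 3 of 31 were higher and 3 lower (19.4% called), with a median of 0.10. Irak2, a kinase of the receptor complex, was higher by 0.49 ± 0.0733 (limma adjusted p = 0.00965) and Map3k7, the kinase TAK1, by 0.87 ± 0.132 (adjusted p = 0.0101, but 0.0554 and 0.0599 without basal array 2 or non-basal array 3). The ubiquitin ligase gene Peli2 was lower at -0.59 ± 0.056 (adjusted p = 0.00293), and Bcl3, a nuclear partner of NF-kappaB, at -1.11 ± 0.166 (adjusted p = 0.00951). The Bcl3 call was lost without basal array 2 and also without non-basal array 2 or 3 (adjusted p = 0.0562, 0.0509 and 0.0588). Zc3h12a was higher by 0.97 ± 0.155 (limma adjusted p = 0.0118) and the adaptor gene Myd88 lower at -0.61 ± 0.119 (0.0222). Both calls were lost without basal array 2 (0.0612 and 0.0889), non-basal array 2 (0.0571 and 0.0797) or non-basal array 3 (0.0647 and 0.0854). Zc3h12a also lost its call without basal array 1 (0.0535), and Myd88 without non-basal array 1 (0.0551).

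In the list of interleukin-1 family processing and release, 4 of 13 were higher and 0 lower in limma. This was 30.8% called, against 14.9% of all genes. Gsdmd and Nlrp1a had negative differences at an unadjusted p under 0.05, and the median of the list was -0.01. Capn1, a calpain protease, stood at 10.49, 10.38 and 10.28 in the basal and 8.89, 9.08 and 8.83 in the non-basal arrays, and was higher by 1.45 ± 0.0958 (limma adjusted p = 0.00197). Calpains are known to cut the interleukin-1 alpha precursor. Capn2 was higher by 1.27 ± 0.219 (adjusted p = 0.0147, and 0.0689, 0.0774 and 0.0635 without basal array 1, basal array 2 and non-basal array 3). Casp4, an inflammatory caspase, was higher by 1.20 ± 0.127 (adjusted p = 0.00361) and Pycard, the inflammasome adaptor, by 0.94 ± 0.157 (adjusted p = 0.0136, and 0.0678, 0.0661 and 0.0509 without the same 3 arrays in turn). Casp1, which cuts the interleukin-1 beta precursor, differed by -0.01 (adjusted p = 0.981).

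In the JAK-STAT list 2 of 28 were higher and 3 lower, with a median of 0.02. The share called, 17.9%, was near the 14.9% of all genes. Socs2, a feedback inhibitor of cytokine receptors, stood at 8.64, 8.55 and 9.10 against 10.29, 10.39 and 10.41 and was lower at -1.60 ± 0.154 (limma adjusted p = 0.00296). Socs3, the feedback inhibitor that binds Il6st, was lower at -1.16 ± 0.202 (adjusted p = 0.0155), a call lost without basal array 1 or 2 (adjusted p = 0.0743 and 0.0763) and without non-basal array 2 or 3 (0.064 and 0.0739). Stat3, the factor downstream of Il6st, was lower at -0.28 ± 0.0639 (adjusted p = 0.0363), a call lost in each of the 6 fits with 1 array left out, at adjusted p of 0.0554 to 0.121. The phosphatase gene Ptpn1 was higher by 0.82 ± 0.134 (adjusted p = 0.0126), lost without basal array 1 and with non-basal array 2 or 3 left out (0.0639, 0.0553 and 0.0653). Socs1 was higher by 0.57 ± 0.144 (limma adjusted p = 0.0499). Of the 6 fits with 1 array left out, its call held only without basal array 3 (adjusted p = 0.0349).

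In the list of other gp130 family and class I cytokine system genes, 5 of 18 were higher and 3 lower, with a median of 0.01. This was 44.4% called, against 14.9% of all genes. Lif, a cytokine of the Il6st family, stood at 12.38, 12.35 and 11.95 in the basal and 10.65, 10.60 and 10.75 in the non-basal arrays. It was higher by 1.56 ± 0.131, 2.94-fold (limma adjusted p = 0.00237), the direction opposite to those of Il6 and Il11. Csf3, the granulocyte growth factor, was higher by 2.14 ± 0.228 (adjusted p = 0.00369), and Csf2rb, the beta chain shared with the interleukin-3 and interleukin-5 receptors, was lower at -1.19 ± 0.144 (adjusted p = 0.00521). These 3 and Ptprz1 passed in all 6 fits with 1 array left out. The chains that pair with Csf2rb, Il3ra and Il5ra, differed by 0.22 and 0.03 and did not pass (adjusted p = 0.112 and 0.778). Il5ra had means under 5 in both fractions and held 1 identical value in 5 of the 6 arrays.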

How the data were processed

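Total RNA of 3 basal and 3 non-basal fractions of rat epididymis was hybridised to Affymetrix RaGene 2.0 ST arrays. The authors deposited log2 values that, per the submitters' processing notes, were made by RMA in Affymetrix Expression Console, and their range fits a log2 scale. Versions, probe set library and build are not given in the sources used here. RMA matches the distributions of the arrays, so a shift common to most genes would be removed.

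Of 36685 probe sets 18511 had 1 symbol in the platform annotation, and 1 probe set with several symbols (Il4i1 with Nup62) was left out. Of the members 2, Il13ra1 and Il13ra2, had 2 probe sets, with differences of the same sign. No filter on dim genes was applied. Differences were fitted over all 18166 genes with limma 3.58.1 in R 4.3.3 (lmFit and eBayes, two-sided, 4 residual degrees of freedom before moderation) and adjusted by Benjamini-Hochberg. As arrays are not tied to animals, p-values measure how these samples vary, which may be technical variation only. Array number limits the precision. Data were simulated for these 3 against 3 arrays and 18166 genes, with 50 genes changed at each size and independent normal errors. Of genes changed by 0.5, 1, 2 and 3 on the log2 scale, 20%, 82%, 96% and 94% were called, and 7 unchanged genes. Far fewer genes were changed than the 14.9% called in the real data, so these shares need not hold there.

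The members and lists were chosen with earlier results of these data known. Named genes were members at an adjusted p under 0.05 or a difference of at least 1, the 10 members with the highest mean, their ligands or receptors, and the 4 genes with the smallest p of each signalling list. Il17ra, Il3ra, Il5ra, Csf1r, Osmr, Casp1, Gsdmd, Nlrp1a, Myd88, Zc3h12a and Socs1 were added after values were seen. So were single markers, members described as the rest, the remaining inhibitors and the neighbours. Alternatives were a replicate block, quantile normalization, centring, array weights, filters at a fraction mean of 5 or 7, a mean-dependent variance prior (trend and robust), averaged probe sets, other thresholds and each array left out. RefSeq (GRCr8) gave gene order and promoter sequences.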

Additional observations from a re-analysis of the deposited data

How the results depend on the processing

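Of the 17 members called, all 17 kept their direction and their call after quantile normalization, centring, the filter at 5, an intensity trend, array weights and the mean of probe sets; 14 of 14 still tested did so with the filter at 7. Whether the replicate numbers pair the samples is not known. Deviations of same-numbered arrays correlated at 0.0312, 0.0383 and 0.0278, and those of differently numbered arrays at -0.0679 to 0.0270. Values this small, from 3 arrays per fraction, cannot decide it. With the replicate number as a block, 4 members were higher and 11 lower, with the calls of Il17re and Il17rd lost (adjusted p = 0.0575 and 0.0536), and Stat3 was lost as well (0.117). Under that block 12 signalling genes were higher and 6 lower: the JAK-STAT list went to 1 higher and 2 lower, and the other gp130 and class I list to 4 higher and 1 lower, while the counts of the other two lists did not move. Arrays left out one at a time gave 2 to 9 members higher and 5 to 15 lower, 1 to 3 ligands higher and 2 to 5 lower, 1 to 6 receptors higher and 3 to 10 lower, 7 to 20 signalling genes higher and 3 to 12 lower, and 509 to 2068 genes higher and 542 to 1607 lower; the ligand median ran from -0.0626 to 0.0138. Leaving out both basal replicate 3 and non-basal replicate 1, a setting chosen after seeing the data, gave 12 members higher, 3 of them ligands and 8 receptors, 23 signalling genes higher and 15 lower, 2499 and 2124 genes, and a member median of -0.13. With array weights 11 members were higher and 19 lower, with 4 ligands and 7 receptors higher, 25 signalling genes higher and 16 lower, 2868 and 2323 genes, and a ligand median of -0.0135. At an adjusted p under 0.01, 3 members were higher and 5 lower, with 2 ligands lower, 2 receptors higher and 3 lower, 7 signalling genes higher and 4 lower, and 491 and 556 genes. At 0.1, 2 ligands were higher and 14 signalling genes lower. The filter at 7 gave medians of 0.20 for ligands, -0.19 for receptors and -0.17 for members, over fewer genes, and quantile normalization gave a member median of -0.13, with -0.03 over all genes. Where a count moved, the cause was not tested. Signal over background is the limit at low levels. Of the ligands 9 of 35 (25.7%) and of the receptors 4 of 34 (11.8%) held 1 identical value in at least 3 arrays, against 16.1% of all genes. By level, it was 8 of 21 members with a mean under 6 (38.1%), against 31.2% of all genes under 6. It was also 5 of 54 members with a mean of at least 6 (9.26%), among them Il6st, so such values were not confined to low levels.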

Other observations

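Some members showed a pattern of arrays that the comparison of fractions did not describe. Non-basal replicate 1 stood nearest to the basal arrays of its fraction for Il1b, for Il7r, the interleukin-7 receptor (7.15, 7.73 and 6.95 in the basal and 6.95, 8.36 and 7.99 in the non-basal arrays), and for Il10ra, the interleukin-10 receptor (6.50, 6.68 and 6.27 against 6.72, 7.46 and 7.08). Il18rap, a chain of the interleukin-18 receptor, stood at 6.14, 6.21 and 6.10 against 6.35, 7.18 and 6.88. Without non-basal replicate 1, Il18rap and Il10ra passed the limma test at -0.88 and -0.78 (adjusted p = 0.00918 and 0.0442). Among the non-basal arrays, T and NK cell markers were also lowest in replicate 1, at mean levels of 7.04, 7.78 and 7.70 in replicates 1 to 3. The same held for pan-leukocyte markers at 8.64, 9.91 and 9.71, macrophage markers at 7.59, 8.83 and 8.73, dendritic cell markers at 6.91, 7.57 and 7.64 and mast cell markers at 5.76, 6.46 and 6.53. Basal cell markers too were lowest in replicate 1 of the non-basal arrays, at 7.40, 8.32 and 8.36. Principal cell markers were highest there, at 11.52, 11.30 and 11.28. The part of any of these cells was not tested.

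Basal replicate 3 stood nearest to the non-basal arrays among the basal arrays for Il24, Il1rl2, Il20ra, Il13ra1, Il17ra, Il6, Il33, Il2ra and Il13ra2. Il17rb, the receptor of interleukin-25, stood at 7.48, 7.42 and 7.14 in the basal and 7.19, 6.54 and 6.29 in the non-basal arrays, and passed without non-basal replicate 1 at 0.93 (adjusted p = 0.0152). These genes were chosen after their values were seen.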
